A study of Rattus norvegicus with 7 samples.

Results

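The miR-183 cluster is a group of 3 microRNAs (miRNAs), rno-miR-183, rno-miR-96 and rno-miR-182, whose hairpins lie next to each other on the same strand of the genome. The members, called miR-183, miR-96 and miR-182 from here on, were chosen by name and genomic position, and the rule uses no measured value. All 3 were among the 677 rat miRNAs on the array, all 3 were called detected on 7 of 7 arrays, and all 3 were among the 272 miRNAs that could be tested for a difference between ages. The samples were pancreatic islets of male Wistar rats, obtained by digesting the pancreas with collagenase, and no treatment or altered allele is named for either age. The older group held 4 rats aged 12 months, numbered 2, 4, 10 and 16 in the labels, and the younger group held 3 rats aged 3 months, numbered 9, 11 and 13. Total RNA of each rat was labelled with the dye Cy3 and read on an Agilent single-colour miRNA array of its own, to ask whether the islet miRNA profile differs between the ages. Such islets hold beta cells and other endocrine cells together with vessels, connective tissue and remnants of the exocrine pancreas, so each value is an average over this mixture.

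A miRNA is cut from a hairpin in a longer transcript, and 1 strand of the hairpin is then loaded into the silencing complex, where bases 2 to 8, the seed, select target mRNAs. The other strand of the hairpin, the star strand, is usually degraded. The miR-183 cluster is conserved across vertebrates and is best known from sensory organs. It is abundant in photoreceptors and in the hair cells of the inner ear, and changes in the seed of miR-96 cause progressive hearing loss in mice and humans. The members are also found in endocrine and epithelial cells, pancreatic islets included.

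The mature sequences are shown because the seeds of the 3 members are nearly alike, which matters for which targets they can share. Likeness over the whole sequence matters for how well array probes can separate them. Whether the probes of one member also read another was not tested. Each is written 5′ to 3′ from RefSeq (build GRCr8), with the seed in capitals.
miR-183: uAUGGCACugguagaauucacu
miR-96: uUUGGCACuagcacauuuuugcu
miR-182: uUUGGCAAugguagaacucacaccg

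The seed of miR-96 matched that of miR-182 at 6 of 7 bases, with the difference C8A (the base in miR-96, the position from 1 at the 5′ end, the base in miR-182). It matched that of miR-183 at 6 of 7 bases as well, with the difference U2A. miR-183 and miR-182 shared 5 of 7 seed bases and differed by A2U and C8A. Over the whole aligned sequence, seed included, the order was another one. Aligned at their 5′ ends, miR-183 and miR-182 were identical at 18 of 22 bases and shared the run UGGUAGAA, whereas miR-96 was identical to miR-183 at 13 of 22 bases and to miR-182 at 12 of 23. Of the 677 array miRNAs, 580 were matched by name to the RefSeq table, and 0 of the others carried any of the 3 seeds.

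In GRCr8 the hairpins lie on the minus strand of chromosome 4, in the order Mir183, Mir96, Mir182 along the direction of transcription. The Mir183 hairpin is at chr4:59756044-59756153, Mir96 at chr4:59755841-59755946 and Mir182 at chr4:59752246-59752307. The Mir183 and Mir96 hairpins are 97 bases apart, the Mir96 and Mir182 hairpins are 3533 bases apart, and the 3 hairpins span 3908 bases. The nearest protein-coding genes in that annotation are Nrf1, which encodes a transcription factor of mitochondrial and metabolic genes, on one side and Ube2h, which encodes a ubiquitin-conjugating enzyme, on the other. The array header names an older rat build (rn4), and no array value depends on these coordinates.

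The arrays of the older rats were brighter as a whole. The 75th percentile of the signal over all rat miRNAs lay between 67.0 and 73.8 units at 12 months and between 37.4 and 55.4 units at 3 months, and 246 to 296 miRNAs were called detected per array. No spot was saturated. The median log2 difference of the tested miRNAs, 12 months minus 3 months, was 0.79 before normalisation and 0.06 after quantile normalisation, which gives every array the same distribution of values. All arrays lay on 1 slide. Row 1 held 12-month-old replicates 2 and 4 and 3-month-old replicate 9, and row 2 held the other rats. The endocrine markers miR-375 and miR-7a were detected on all 7 arrays. The log2 of their summed normalised levels ranged from 15.04 to 15.29 at 12 months and from 15.28 to 15.43 at 3 months.

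miR-183 showed no difference between the ages beyond the spread between rats once the arrays were normalised. Its total gene signal, the background-subtracted sum over its probes that the scanner software reports, was 1535, 1324, 858.1 and 1430 units in 12-month-old replicates 2, 4, 10 and 16. It was 664.4, 864.1 and 553.7 units in 3-month-old replicates 9, 11 and 13. Replicate 10 was the dimmest of the older rats and lay just under the brightest of the younger rats, so the ages overlapped. The older rats averaged 1287 ± 299 units (SD, n = 4), against 694 ± 157 in the younger rats (SD, n = 3). The difference of the log2 means was 0.88, close to the 0.79 of the median miRNA. In such bulk RNA, fewer cells that hold a miRNA and less of it per cell cannot be told apart.

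After normalisation the log2 level of miR-183 averaged 9.92 ± 0.19 in the older rats (SD, n = 4) and 9.84 ± 0.19 in the younger rats (SD, n = 3). The single values were 10.05, 9.998, 9.63 and 9.998 in 12-month-old replicates 2, 4, 10 and 16, and 9.88, 9.998 and 9.63 in 3-month-old replicates 9, 11 and 13. Some values are identical because quantile normalisation gives a miRNA of the same rank on different arrays the same value. The difference, 12 months minus 3 months, was 0.08 (SE 0.17, 95% confidence interval −0.30 to 0.47, adjusted p = 0.899 by limma's moderated test with Benjamini-Hochberg adjustment over 272 miRNAs). A two-sided exact permutation test over the 35 splits of the rats gave p = 0.6.

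miR-96, whose seed is the one tied to hearing, also showed no difference beyond the spread once normalised. Its total gene signal was 3773, 3186, 2208 and 3260 units in 12-month-old replicates 2, 4, 10 and 16, and 1715, 2098 and 1355 units in 3-month-old replicates 9, 11 and 13. Every older rat was brighter than every younger one before normalisation, but so it was for 131 of the 272 tested miRNAs (48.2%). The means were 3107 ± 654 units for the older rats (SD, n = 4) and 1722 ± 372 for the younger rats (SD, n = 3). The difference of the log2 means was 0.85 before normalisation.

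The normalised log2 level of miR-96 was 11.55, 11.45, 10.97 and 11.35 in 12-month-old replicates 2, 4, 10 and 16, and 11.13, 11.17 and 11.22 in 3-month-old replicates 9, 11 and 13. The younger rats lay close together, and replicate 10 lay below all of them while the other older rats lay above. The means were 11.33 ± 0.25 (SD, n = 4) and 11.17 ± 0.05 (SD, n = 3). The difference was 0.16 (SE 0.17, 95% confidence interval −0.23 to 0.55, adjusted p = 0.680 by limma), with an exact permutation p of 0.343. Without replicate 10 it was 0.27 (adjusted p = 0.124 by limma), and with each array scaled to its miR-7a signal it turned to −0.02.

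miR-182 had the smallest difference of the members before normalisation, and its ages overlapped. Its total gene signal was 93.4, 79.4, 46.3 and 81.7 units in 12-month-old replicates 2, 4, 10 and 16, and 79.4, 57.5 and 34.2 units in 3-month-old replicates 9, 11 and 13. Replicate 9 at 3 months was as bright as replicate 4 at 12 months, and replicate 10 at 12 months was dimmer than replicates 9 and 11 at 3 months. Its mean was 75.2 ± 20.2 units in the older rats (SD, n = 4) and 57.0 ± 22.6 in the younger rats (SD, n = 3). The difference of the log2 means before normalisation was 0.43, below the median of 0.79 over all tested miRNAs.

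Normalised, miR-182 was at 6.27, 5.93, 5.46 and 6.11 on the log2 scale in 12-month-old replicates 2, 4, 10 and 16, and at 6.72, 5.96 and 5.72 in 3-month-old replicates 9, 11 and 13. The highest value was that of 3-month-old replicate 9 and the lowest that of 12-month-old replicate 10. The means were 5.94 ± 0.35 (SD, n = 4) and 6.13 ± 0.52 (SD, n = 3), a difference of −0.19 (SE 0.29, 95% confidence interval −0.85 to 0.47, adjusted p = 0.817 by limma, exact permutation p = 0.571). Without replicate 9 at 3 months it was 0.11, so that 1 rat sets its direction.

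**Figure D1:**
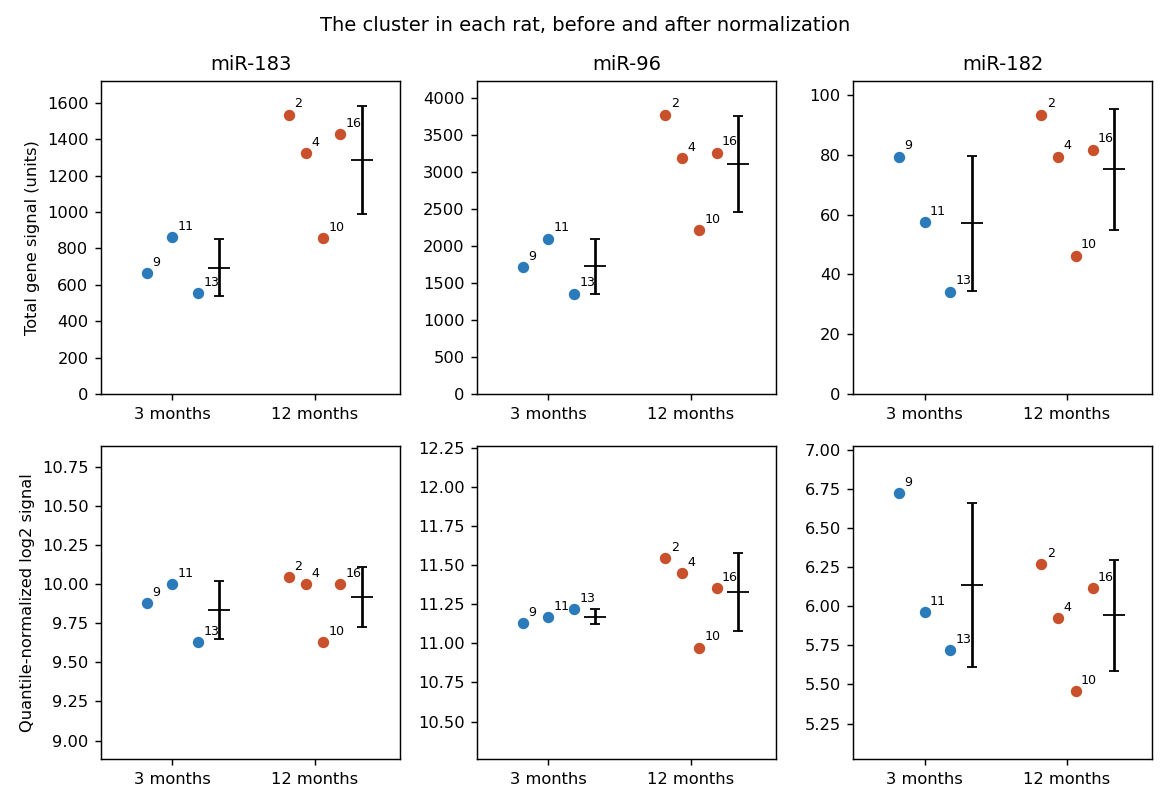
Total gene signal in units (top row, linear axis from 0) and quantile-normalised log2 signal (bottom row) of miR-183, miR-96 and miR-182, with 1 point per rat numbered by replicate (blue, 3 months; orange, 12 months) and the mean ± SD beside each age. The older rats are on average brighter for all 3 members before normalisation, and the ages overlap for all 3 after it. The means before normalisation are 1287 against 694 units for miR-183, 3107 against 1722 for miR-96 and 75.2 against 57.0 for miR-182.

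The test therefore called 0 of the 3 members, against 4 of 272 miRNAs called at an adjusted p below 0.05 by limma (1.47%), of which 3 were higher at 12 months (1.1%) and 1 was lower (0.368%). These calls include miRNAs at the floor in every younger rat. With the test limited to the 238 miRNAs detected on all arrays, as the members were, 1 was called. At an unadjusted p below 0.05 the test over 272 miRNAs called 0 of the 3, against 59 of 272 (21.7%), and the ages did not overlap for 0 of the 3, against 47 of 272 (17.3%). A p that misses the threshold does not show that the ages are equal. After quantile normalisation the confidence intervals leave room for log2 changes from −0.30 to 0.47 for miR-183 and from −0.23 to 0.55 for miR-96. For miR-182 they leave room for changes from −0.85 to 0.47. Within slide row 1 (2 rats aged 12 months, 1 aged 3 months) the differences were 0.14, 0.37 and −0.62 for miR-183, miR-96 and miR-182. Within row 2 (2 rats of each age) they were 0, −0.03 and −0.06.

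Each member was read by several probes with replicate spots, which gives a measure of error within an array. The 2 probes of miR-183 had 10 spots each and differed between the ages by 0.89 each on the log2 scale before normalisation. The 2 probes of miR-96, again with 10 spots each, differed by 0.86 and 0.85. Their spots varied little around the probe mean, with a median coefficient of variation of 2.98% and 4.71% for the probes of miR-183 and of 4.60% and 2.65% for those of miR-96. The probes of each of these miRNAs therefore gave the same age difference to within 0.01.

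The 3 probes of miR-182 did not read alike. The silent probe, with 7 spots, gave between −2.46 and 0.62 units on the 7 arrays and had 0 spots well above background. The weak probe, also with 7 spots, gave between 7.29 and 34.8 units with a median coefficient of variation of 18.9%. The bright probe, with 6 spots, gave between 74.9 and 195 units, carried 78.7% to 91.5% of the miR-182 signal, and had a median coefficient of variation of 6.08%. miR-182 thus rests mainly on 1 probe. The weak and the bright probe differed between the ages by 0.36 and 0.46 before normalisation.

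In the rat with the highest normalised miR-182, 3-month-old replicate 9, both responding probes read above the other 3-month-old rats. The weak probe gave 34.8 ± 7.63 units there (SD over 7 spots), the highest of the 7 rats, where 3-month-old replicates 11 and 13 gave 14.6 and 7.29. The bright probe gave 152 ± 9.97 units (SD over 6 spots) in replicate 9 and 123 and 74.9 in replicates 11 and 13. In 12-month-old replicates 2, 4 and 16 the bright probe read higher, at 195, 167 and 171 units. The weak and the bright probe thus did not rank replicate 9 alike among the 7 rats.

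**Figure D2:**
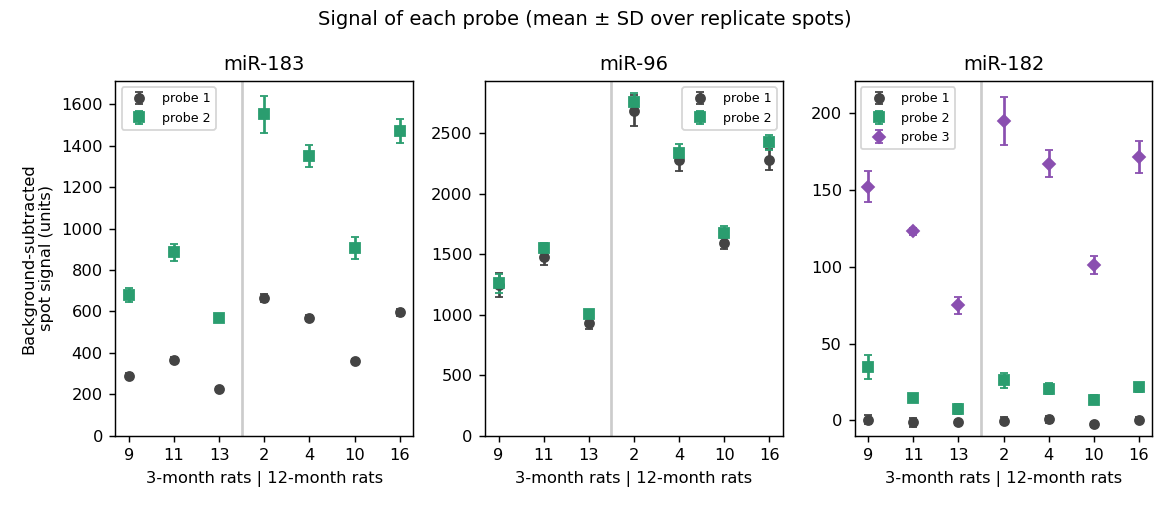
Background-subtracted spot signal in units of each probe of miR-183, miR-96 and miR-182 in each rat, with the 3-month-old rats left of the grey line and the 12-month-old rats right of it; points are means and bars SDs over the replicate spots. The probes of miR-183 and of miR-96 move together across rats, 1 probe of miR-182 stays at background, and the weak probe of miR-182 is highest in 3-month-old replicate 9 at 34.8 units.

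Ratios between the members on the same array are free of any constant scaling of the array, which cancels. A difference in brightness that varies with signal level does not cancel, nor does an error in the background of a dim miRNA such as miR-182. A ratio of miRNA signals is not a ratio of molecules, because probes differ in response, so only its change between rats was read. The ratio of miR-183 to miR-96 was 0.407, 0.415, 0.389 and 0.439 in 12-month-old replicates 2, 4, 10 and 16, and 0.387, 0.412 and 0.409 in 3-month-old replicates 9, 11 and 13. It spanned a range of 1.13-fold over the 7 rats, while the signals themselves spanned 2.77-fold for miR-183 and 2.79-fold for miR-96. The difference of the log2 ratio between ages was 0.03 before normalisation (exact permutation p = 0.457), with overlapping ages, and −0.08 after quantile normalisation (exact permutation p = 0.543, Benjamini-Hochberg adjusted p = 0.543 over the 3 pairs).

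The closeness of miR-183 and miR-96 was set beside that of all other tested miRNAs, a comparison chosen after the values had been seen and given as a description. Over the 7 rats the SD of the log2 ratio of miR-183 to miR-96 was 0.061. Counted from the tightest, miR-96 was at rank 3 among the 271 other tested miRNAs for miR-183, behind a lowest SD of 0.042 with miR-455 and against a median of 0.307. miR-183 was at rank 4 of 271 for miR-96, where the lowest was 0.043 with miR-425 and the median 0.299. The ranking takes no account of signal level. The hairpins of these members are 97 bases apart, and whether this bears on their ratio was not tested.

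The ratios to miR-182 were wider. That of miR-183 to miR-182 was 16.4, 16.7, 18.5 and 17.5 in 12-month-old replicates 2, 4, 10 and 16, and 8.37, 15.03 and 16.2 in 3-month-old replicates 9, 11 and 13. That of miR-96 to miR-182 was 40.4, 40.1, 47.7 and 39.9 in the older rats and 21.6, 36.5 and 39.6 in the younger rats, in the same order. 3-month-old replicate 9 lay far below all other rats in both ratios, and 12-month-old replicate 10 lay above them, most clearly in the ratio of miR-96 to miR-182. The SD of the log2 ratio over the 7 rats was 0.388 for miR-183 (miR-182 at rank 166 of 271) and 0.362 for miR-96 (rank 158). Without replicate 9 it was 0.103 (rank 30) and 0.127 (rank 47).

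Before normalisation each older rat had a higher ratio of miR-183 to miR-182 and of miR-96 to miR-182 than each younger rat, as held for the ratio to miR-182 of 54 of 271 miRNAs (19.9%). The log2 ratio of miR-183 to miR-182 was 4.11 ± 0.08 in the older rats (SD, n = 4) and 3.66 ± 0.52 in the younger rats (SD, n = 3), a difference of 0.45 (two-sided exact permutation p = 0.0286, the smallest that 4 rats against 3 allow, adjusted p = 0.0429 over the 3 pairs). For miR-96 to miR-182 it was 5.39 ± 0.12 and 4.98 ± 0.47, a difference of 0.41 with the same exact permutation p. Both ratios hold miR-182, and the ratio of miR-183 to miR-96 was nearly constant. The ratios to miR-182 are therefore not separate results, and the adjusted p rests on both having the smallest p. Without 3-month-old replicate 9 these differences were 0.15 (exact permutation p = 0.133) and 0.14 (exact permutation p = 0.333), and both calls were lost, although 4 rats against 2 cannot give a p below 0.0667. After quantile normalisation the differences were 0.28 (exact permutation p = 0.343, adjusted p = 0.514) and 0.35 (exact permutation p = 0.143, adjusted p = 0.429), and the ages overlapped. For the ratio to miR-96, 13 of 271 miRNAs (4.80%) had every older rat above every younger rat, and miR-183 was not among them.

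**Figure D3:**
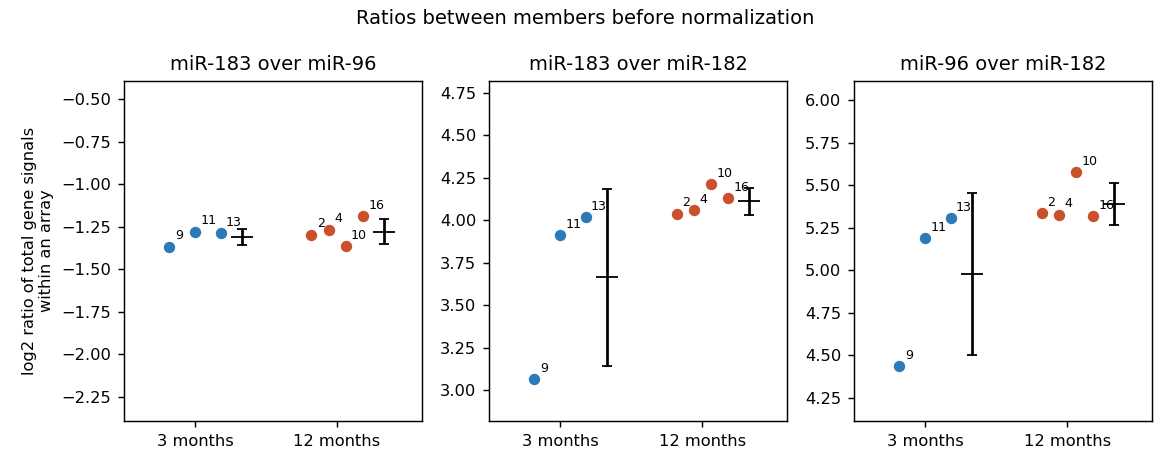
Log2 ratio of the total gene signals of each pair of members within an array, before normalisation, with 1 point per rat numbered by replicate and the mean ± SD beside each age; the 3 vertical axes span the same number of log2 units. The ratio of miR-183 to miR-96 is nearly the same in all 7 rats, and both ratios to miR-182 are set apart by 3-month-old replicate 9, where the signals of miR-183 and miR-96 were 8.37 and 21.6 times that of miR-182.

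Across the 7 rats the normalised levels of miR-183 and miR-96 had a Pearson's r of 0.711 (exact permutation p = 0.0881, adjusted over the 3 pairs 0.264) and a Spearman's rho of 0.767 (exact permutation p = 0.0524, adjusted 0.157). Leaving out the 2 rats farthest from the median of miR-183 gave r = 0.771. For miR-183 and miR-182 r was 0.571 (exact permutation p = 0.188, adjusted 0.282) and rho 0.580 (exact permutation p = 0.186, adjusted 0.279), and r turned to −0.73 without the 2 farthest rats. For miR-96 and miR-182 r was 0.310 (exact permutation p = 0.505, adjusted 0.505) and rho 0.286 (exact permutation p = 0.556, adjusted 0.556), and r turned to −0.42. None of the 3 relations passed the threshold, and those with miR-182 did not hold without the 2 farthest rats. Before normalisation the r of miR-183 with miR-96 was 0.996, but there all miRNAs share the brightness of the array. After normalisation, miR-96 was only at rank 56 of 271 by r with miR-183, which was led by miR-154 (0.949).

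The miRNAs whose normalised pattern over the 7 rats was most like the mean of the 3 members were, in order, miR-382 (r = 0.984), miR-433 (0.966), miR-379 (0.962), miR-23b (0.950) and miR-376b-3p (0.940). The most opposite were miR-200b (−0.925), miR-3573-3p (−0.893) and let-7b (−0.843), against a median r of 0.174 over all others. These correlations describe the same 7 arrays that share 1 normalisation, and no test was made of them. Each of these 8 miRNAs had an age difference between −0.10 and 0.02 on the log2 scale, and their adjusted p values by limma ran from 0.899 upward. They were chosen by their pattern on these same arrays, where the normalised members differed little between the ages. Their small differences are therefore not a separate result.

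The star strands gave weaker signals, and their sequences are shown because they come from the same hairpins, with bases 2 to 8 in capitals.
miR-183*: uGAAUUACcgaagggccauaa
miR-96*: cAAUCAUGugcagugccaauau

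miR-183*, the 3′ strand of the Mir183 hairpin, was detected on 7 of 7 arrays but lay close to background. Its total gene signal was 13, 11.3, 5.21 and 11.9 units in 12-month-old replicates 2, 4, 10 and 16, and 3.26, 6.29 and 1.42 units in 3-month-old replicates 9, 11 and 13. Replicate 10 was again the lowest of the older rats and lay below 3-month-old replicate 11. Of its 4 probes, 1 had all of its 5 spots well above background on 5 of the 7 arrays, and the other probes had none there on any array. The normalised log2 level averaged 2.97 ± 0.47 for the older rats (SD, n = 4) and 2.07 ± 0.85 for the younger rats (SD, n = 3). The difference was 0.90 (SE 0.41, 95% confidence interval −0.05 to 1.84, adjusted p = 0.252 by limma, exact permutation p = 0.143). In 3-month-old replicate 13, 0 spots of any of its probes were well above background, so this value is uncertain. The responding probe alone differed by 0.90 before normalisation, when the median miRNA differed by 0.79.

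The log2 ratio of miR-183* to miR-183 within an array was −7.01 ± 0.24 in the older rats (SD, n = 4) and −7.79 ± 0.76 in the younger rats (SD, n = 3) before normalisation, and the ages overlapped. This ratio is uncertain, because the total of miR-183* includes probes that read below 0 on every array (−7.08 to −3.71 and −4.80 to −2.73 units). The responding probe alone differed between the ages by 0.90 before normalisation, and miR-183 by 0.88. miR-96* was not detected on any of the 7 arrays, with signals between −1.66 and 1.004 units. The star strand of miR-182 was not analysed here.

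A further miRNA lies on the opposite strand of the Mir183 hairpin. miR-3553, from a hairpin at chr4:59756047-59756152 on the plus strand of GRCr8, shares 106 hairpin positions with Mir183 and is complementary to all 22 bases of miR-183. It was singled out for its position after the values had been seen.
miR-3553: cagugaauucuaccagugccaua
It was not detected on any of the 7 arrays, with signals between −1.65 and 1.38 units.

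None of the endocrine and epithelial miRNAs that share tissues with the cluster passed the test, where 1.47% of all tested miRNAs did. The list holds miR-375 and the miR-7 miRNAs of endocrine cells together with miR-200a, miR-200b, miR-200c, miR-141 and miR-429, which keep epithelial cells in their differentiated state. All 8 were tested, 0 passed the adjusted threshold in either direction, 2 had a difference above 0, and the median difference was −0.15 against 0.06 over all 272 miRNAs. That median turned to 0.04 with arrays scaled to the 75th percentile of all miRNAs, where the median of all tested miRNAs was 0.16. With no normalisation it was 0.67 and 4 of the 8 passed, where the median of all tested miRNAs was 0.79 and 171 of the 272 passed (62.9%). The largest differences were −0.30 for miR-141 (SE 0.21, adjusted p = 0.493 by limma) and −0.27 for miR-7b (SE 0.23, adjusted p = 0.574 by limma).

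Of 5 miRNAs known from neural and sensory tissue, where the cluster is also prominent, 2 were tested. miR-124, a miRNA of neurons, was called higher at 12 months. It was detected on all 4 arrays of the older rats and on 0 of 3 arrays of the younger rats. It thus passed the filter through the older rats alone, and every younger value sat at the floor. Its adjusted p of 0.00269 by limma and its fold change both depend on that floor, and the fold change is not given. miR-204, a miRNA of the retinal pigment epithelium that is also found in beta cells, differed by 0.18 (adjusted p = 0.665 by limma). miR-9, miR-184 and miR-211 were detected on 0 of the 7 arrays.

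None of the markers of other cells in the preparation passed the test between the ages, and their levels varied between single rats. The miRNAs of acinar cells (miR-217, miR-216a and miR-216b-5p) had differences with a median of −2.11, and 0 of 3 passed the adjusted threshold. The log2 of their summed normalised levels was 6.96, 9.31, 10.43 and 7.86 in 12-month-old replicates 2, 4, 10 and 16 and between 10.24 and 11.49 at 3 months. This sum also holds miR-216b-3p, which was detected on 1 array and not tested. Replicate 10, the older rat with the lowest miR-183, miR-96 and miR-182, thus had the highest acinar sum of the older rats and the lowest endocrine sum of all 7, at 15.04. The 5 mesenchymal miRNAs all had differences above 0 with a median of 1.16, of which 0 passed the threshold, and their sum was 10.90 to 11.45 at 12 months and 10.25 to 10.91 at 3 months. With arrays scaled to the 75th percentile of all miRNAs 3 of these 5 passed, as did 10 of all 272 (3.68%), and with no normalisation all 5 did, as did 62.9% of all. The endothelial miR-126 differed by 0.07, both erythroid miRNAs had differences below 0 (median −0.52) and 3 of 4 leukocyte miRNAs above 0 (median 0.62), and 0 of these passed the threshold. The part of these cells in the values of the cluster was not tested.

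The direction of miR-96 changed only with arrays scaled to miR-7a. That of miR-182 changed with no normalisation and when 3-month-old replicate 9 was left out (0.11). That of miR-183 changed only when 3-month-old replicate 13 was left out (−0.03). Across the scalings between arrays that were tried, the difference of miR-183 ran from 0.01 with arrays scaled to miR-7a to 0.25 with arrays scaled to the 75th percentile of all miRNAs, and was 0.88 with no normalisation. That of miR-96 ran from −0.02 to 0.21 and was 0.85 with no normalisation. That of miR-182 ran from −0.43 to −0.19 and was 0.43 with no normalisation. With no normalisation, miR-183 and miR-96 had an adjusted p of 0.0286 each by limma, when 171 of the 272 miRNAs (62.9%) passed the same threshold. Relative to the median miRNA in that setting, miR-183 and miR-96 lay slightly above it and miR-182 below it.

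**Figure D4:**
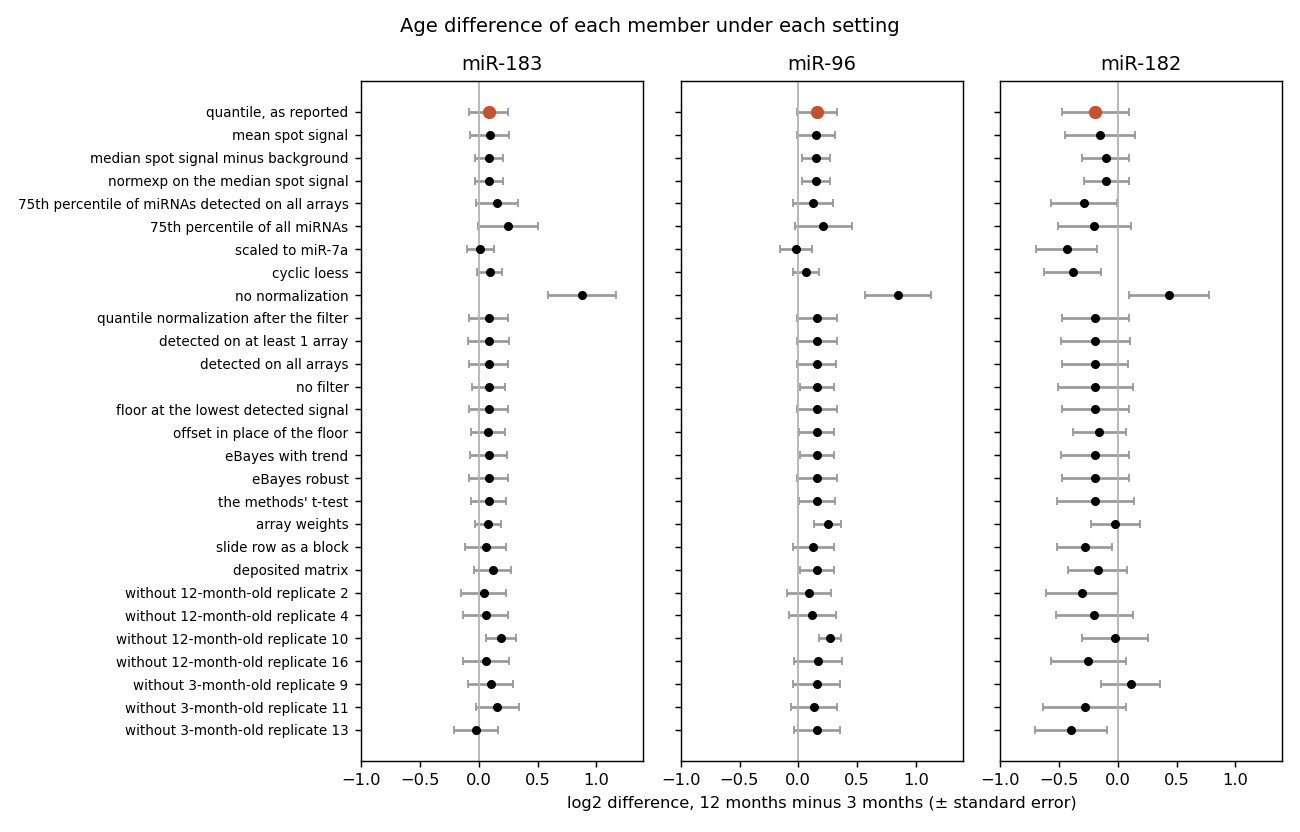
Difference of miR-183, miR-96 and miR-182 between ages (12 months minus 3 months, log2 units) under each processing setting, with 1 row per setting; points are fitted differences, bars ± standard errors, the orange point is the value reported in the text and the grey line is 0. With no normalisation the differences are 0.88, 0.85 and 0.43, and under the other settings they stay within −0.43 to 0.27.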

How the data were processed

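Islet RNA of 4 rats aged 12 months and 3 aged 3 months was compared, grouped by the age in the labels. The authors deposited the output of Agilent Feature Extraction (version 10.7.3.1, per the labels) per array, which holds linear intensities after background subtraction, the median intensity and local background of each spot, and detection flags. They also deposited a matrix of log2 values, which was used as an alternative. Their supplement states quantile normalisation on a log2 scale. Quantile normalisation makes miRNAs of equal rank equal, so small differences can vanish as ties.

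The total gene signal of 677 rat miRNAs was floored at 1, put on a log2 scale and quantile normalised. The filter kept the 272 miRNAs that all arrays of an age detected, and these were fitted with limma (version 3.58.1, lmFit and eBayes, 3.03 prior degrees of freedom) in R (version 4.3.3), with Benjamini-Hochberg adjustment over them. Ratios, single miRNAs and correlations were tested with two-sided exact permutation tests. The script was tested on simulated data. Each rat had 1 array, so the SDs hold the spread between rats and of the assay and precision is limited by the number of arrays.

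The miRNAs named are the members, their star strands, the 5 most alike and 3 most opposite in pattern, and from each list those called or else the 2 with the largest differences. The members and lists were chosen with earlier results of these data known. Alternatives covered the signal summary, background correction (normexp with an offset of 16 on the median spot signal), scaling, filter, floor, variance model, array weights, slide row, the authors' matrix, and leaving out each rat. Other experiments of the study were not analysed here.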

Additional observations from a re-analysis of the deposited data

Results flagged for a closer look

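Among 14 measures of the cluster within the 12-month-old rats (members, ratios and star strand, before and after normalisation), 2 had 1 rat set apart by Dixon's test at its 95% level. Chance alone gives such a gap in about 1 in 20 groups. In the normalised log2 level of miR-183, replicate 10 lay lowest at 9.63, with a gap of 0.883 of the range. In the log2 ratio of miR-96 to miR-182 before normalisation, replicate 10 lay highest at 5.58, with a gap of 0.930 of the range. Replicate 10 also had the lowest endocrine and the highest acinar sum of the older rats, and the part of this in both values was not tested.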

How the results depend on the processing

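No paired analysis was possible because the ages share no replicate numbers. With no normalisation miR-183 (0.88) and miR-96 (0.85) passed the threshold by limma and miR-182 turned to 0.43, and with arrays scaled to miR-7a miR-96 turned to −0.022. Leaving out 1 rat at a time gave −0.027 (without 3-month-old replicate 13) to 0.19 for miR-183, 0.09 to 0.27 for miR-96 and −0.40 to 0.11 (without 3-month-old replicate 9) for miR-182, none past the threshold. The log2 ratio of miR-183 to miR-96 turned to 0.026 under cyclic loess and to 0.033 under every constant scaling (both 75th percentiles, miR-7a, none), and ran from −0.19 to 0.025 (without 3-month-old replicate 11) with a rat left out. Under the constant scalings the ratios to miR-182 passed, at 0.45 for miR-183 and 0.41 for miR-96. With a rat left out they ran from −0.0086 (without 3-month-old replicate 9) to 0.44 and from 0.05 to 0.56 after quantile normalisation, and, in a setting added after the data were seen, from 0.15 to 0.62 and from 0.14 to 0.58 before it. The count of miRNAs with an adjusted p below 0.05 by limma was 4, and 2 on the median spot signal with or without normexp, 21 and 10 with the 75th percentile of detected and of all miRNAs, 15 with miR-7a, 16 with cyclic loess, 171 with no normalisation, 1 with detection on all arrays, 48 with array weights, 8 in the deposited matrix, and 4 to 10 with a rat left out (10 without 12-month-old replicate 10). In all other settings run, the members and their ratios kept their direction and missed the threshold. The cause of these shifts was not tested.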
